A study of Rattus norvegicus with 16 samples.

Results

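Mitochondrial ribosomal proteins build the mitoribosome, the ribosome inside mitochondria that translates the mRNAs made from mitochondrial DNA. Those mRNAs encode core subunits of the respiratory chain and of ATP synthase, and the proximal tubule draws most of its ATP from oxidative phosphorylation. The rRNAs of the mitoribosome come from mitochondrial DNA, whereas its proteins are encoded in the nucleus, made by cytosolic ribosomes and imported; many have a counterpart in the bacterial ribosome and others occur in mitochondria alone. The genes described here are the protein-coding rows of the count table whose symbol starts with Mrpl or Mrps followed by a digit, 76 of 32623 rows. By the role of the protein, 47 members belong to the large subunit, among them Mrps18a and Mrps30 in spite of their names, and 26 to the small subunit. Mrps36 encodes a component of the alpha-ketoglutarate dehydrogenase complex, and Mrps21l and Mrps21l.1 are named as copies of Mrps21. Roles were assigned after the values had been seen. In each comparison 74 members had enough counts to be tested by edgeR. The remaining members were Mrps21l (ENSRNOG00000048409), with 3 counts over all libraries, and Mrps21l.1 (ENSRNOG00000049921), with a mean of at most 0.242 FPM in any group. Mrpl9, Mrpl11, Mrpl24 and Mrpl30 were not analysed here.

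The libraries came from an indirect co-culture of a pair of rat kidney lines that shared their medium. NRK-52E, an epithelial line with features of the proximal tubule, grew on permeable filter inserts, and NRK-49F, a fibroblast line, grew in the wells underneath, so cell line and growth surface cannot be told apart. After 24 h without serum the co-cultures were kept for 48 h in medium of pH 7.4 (control, written pH7 in the labels) or pH 6.0 (acidosis, written pH6), and poly(A) RNA of each line was sequenced. There were 4 libraries for each cell line and pH: N1, N2, N5 and N6 for NRK-52E at pH 7.4, N3, N4, N7 and N8 for NRK-52E at pH 6.0, N9, N10, N13 and N14 for NRK-49F at pH 7.4, and N11, N12, N15 and N16 for NRK-49F at pH 6.0. Values of single libraries are given in this order throughout. Nothing states that the libraries of a group came from separate cultures, so FDR values measure only the spread between these samples, which may be technical. Total counts lay between 16201084 and 34784862 per library, and the members took between 0.225% (N5) and 0.378% (N12) of them.

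Levels are given as FPM, counts scaled to library size with TMM factors over the 16 libraries, with mean ± SD over the 4 libraries of a group. Log2 fold changes are given ± standard error and are pH 6.0 minus pH 7.4, or NRK-52E minus NRK-49F. Genes with an FDR below 0.01 in both edgeR and DESeq2 were considered DEGs, and printed FDR values are those of edgeR's quasi-likelihood test with Benjamini-Hochberg adjustment over all genes tested. The words rose and fell are used for DEGs only. Members were named by a rule on role and size of change; Mrpl4, Mrpl13, Mrpl17, Mrpl18, Mrpl55, Mrps6, Mrps15, Mrps23, Mrps26, Mrps28, Mrps33 and members at the ends of printed ranges fall outside it and were chosen after their values were seen.

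The labels were compared with marker genes. Krt8 was the most abundant of 8 epithelial markers, at 392 to 464 FPM in NRK-52E at pH 7.4, but it was higher in NRK-49F at that pH, at 791 to 952 FPM. Krt7 separated the lines, with 32.4 to 43.0 FPM in NRK-52E at pH 7.4 and at most 0.808 FPM in NRK-49F, whereas Cdh1 reached only 1.89 FPM and Epcam, Krt18, Cldn3 and Cldn4 at most 0.307 FPM in any library. Of the proximal tubule markers, Slc34a1 was at 0 in every NRK-52E library, Lrp2 did not exceed 1.01 FPM, and Ggt1 was higher in NRK-49F (92.6 to 132 FPM at pH 7.4) than in NRK-52E (1.22 to 1.79 FPM). This list also held a DEG with the opposite direction. Of its 4 genes tested between the lines at pH 7.4, NRK-52E had more of 1 (log2 fold change 0.735) and less of 2. Of 3 tested at pH 6.0, it had more of 0 and less of 1. Col1a1 and Pdgfra marked NRK-49F, at 5672 to 6632 and 341 to 452 FPM at pH 7.4 against 19.7 to 28.4 and 0.165 to 0.42 FPM in NRK-52E. Of 8 fibroblast markers tested between the lines at pH 7.4, NRK-52E had less of 5 and more of 1 (highest log2 fold change 3.85). Of 7 tested at pH 6.0, it had less of 4 and more of 1 (highest 5.59). Among epithelial markers it had more of 2 and less of 1 of 4 tested at pH 7.4. At pH 6.0 it had more of 2 and less of 0 of 3 tested. Thy1 was at 0 in all libraries, Dcn below 1 FPM, and Col3a1 was the most abundant fibroblast marker of NRK-52E, at 6129 to 6349.6 FPM at pH 7.4 and 1786 to 3168 FPM at pH 6.0. The markers therefore fit the labels in part, and the samples are called by their cell line.

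Marker levels also moved with pH. The summed FPM of the 8 epithelial markers were 502, 468, 435 and 495 in NRK-52E at pH 7.4 and 367, 295, 329 and 320.4 at pH 6.0, with 4 of 4 tested genes falling. In NRK-49F these sums were 833, 794, 954 and 848 at pH 7.4 and 208, 220.0, 202 and 199 at pH 6.0, and 1 of 2 tested genes fell. The 9 fibroblast markers summed to 6816, 6865, 6739.5 and 6570.3 FPM in NRK-52E at pH 7.4 and to 3425, 3225, 2824 and 2002 FPM at pH 6.0, where 5 of 6 tested genes fell. In NRK-49F the fibroblast sums were 9557, 9956, 9564 and 10215 FPM at pH 7.4 and 10106, 9575, 10192 and 8706 FPM at pH 6.0, and 4 of 7 tested genes fell. The 7 proximal tubule markers summed to 46.4, 42.8, 28.7 and 35.9 FPM in NRK-52E at pH 7.4 and to 29.0, 31.0, 24.5 and 35.2 FPM at pH 6.0, with 1 of 4 tested genes falling. In NRK-49F the proximal tubule sums were 130.3, 119.9, 147 and 158 FPM at pH 7.4 and 358, 381, 542 and 542 FPM at pH 6.0, where 1 of 4 tested genes rose and 1 fell. The part of these shifts in the results on the members was not tested.

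Some libraries stood apart from their group for most members at once. N8 was the highest NRK-52E library at pH 6.0 for 64 of 74 members, and N13 was the highest NRK-49F library at pH 7.4 for 66. Among the NRK-52E libraries at pH 7.4, N1 was highest for 59 members and N5 lowest for 64. All libraries were kept, and counts of DEGs are given with and without N8 and N13 where these moved them. The column names also carry a second number, 21 for N1 to N4 and N13 to N16, 22 for N5 to N8 and 20 for N9 to N12, whose meaning is not given in the sources used here; results within 1 number are given beside the pooled ones.

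The summed FPM of all members were 2429.6, 2087, 1854 and 2203 in NRK-52E at pH 7.4 and 2831, 2410.3, 2579.7 and 3584 at pH 6.0. N8 lay far above the other libraries at pH 6.0, and the lowest of them, N4, lay below N1, so the pH groups overlapped. In NRK-49F the sums were 3420.3, 3375, 4269 and 3447 at pH 7.4 and 3590.3, 4061, 3989.9 and 3526 at pH 6.0. Here N13 exceeded every library at pH 6.0, while the other libraries at pH 7.4 lay below all of them. The means were 2143 ± 239.8, 2851 ± 518, 3628 ± 429 and 3792 ± 273 FPM (SD, n = 4) in the order NRK-52E pH 7.4 and 6.0, NRK-49F pH 7.4 and 6.0, and every NRK-52E library at pH 7.4 lay below every NRK-49F library. The large subunit proteins made up 1419 ± 163, 1832 ± 333, 2455 ± 277 and 2536 ± 174 FPM of these, and the small subunit proteins 699.5 ± 74.7, 982 ± 178, 1144 ± 148 and 1227 ± 96.6 FPM. In such bulk samples fewer cells of a type and less RNA per cell cannot be told apart.

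**Figure D1:**
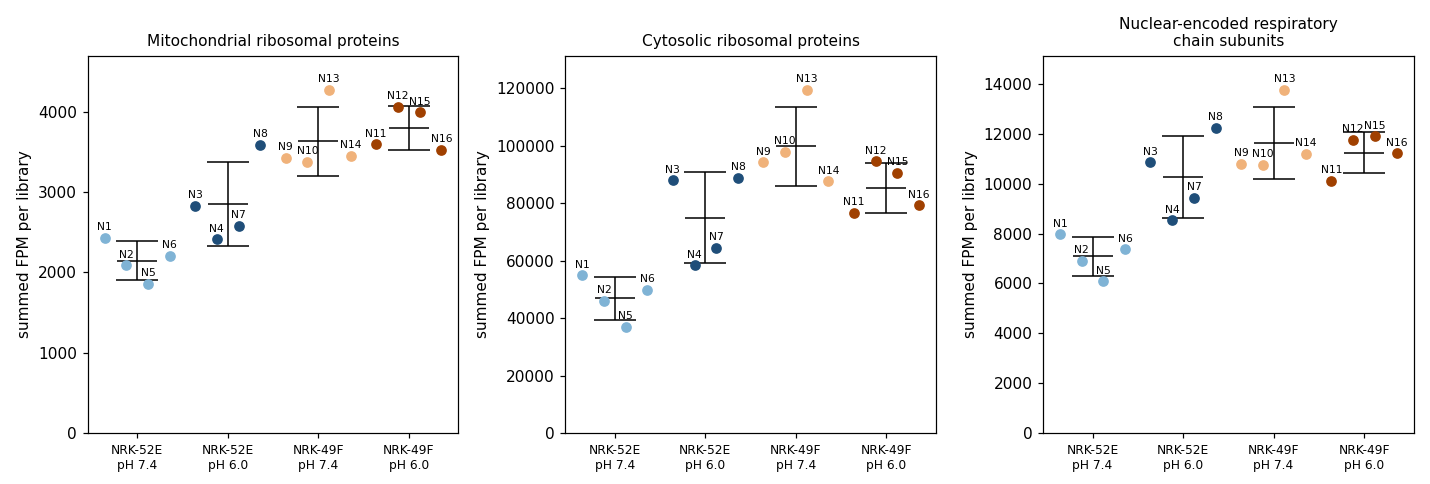
Summed FPM of the mitochondrial ribosomal proteins, the cytosolic ribosomal proteins and the nuclear-encoded respiratory chain subunits in each of the 16 libraries, with the mean ± SD of each group of 4. For the mitochondrial ribosomal proteins N8 (3584) and N13 (4269) lie above the other libraries of their groups.

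Comparing pH 6.0 with pH 7.4 within a line addresses what 48 h of acidosis did to these transcripts. In NRK-52E, 29 of 74 members rose (39.2%) and 3 fell (4.05%), from 1.83 for Mrps16 to -0.81 for Mrpl49 on the log2 scale. Of the 13735 genes tested, 56.7% were DEGs, 28.2% risen and 28.5% fallen; whether the shares of members differ from these was not tested. Their median log2 fold change was 0.33 (0.18 to 0.41 with 1 library left out) against 0.00 for all genes, and 57 members (77.0%) were fitted above 0, against 6872 of the 13735 genes. Members with a bacterial counterpart and mitochondria-specific members were both represented, with 13 of 40 and 16 of 33 risen, and 2 and 1 fallen.

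The balance of rises and falls in NRK-52E depended on scaling. Library totals were also used in place of TMM and size factors in both tools. The median of all genes then shifted to -0.21 and that of the members to 0.11. Their difference was 0.32 under either scaling, which is no separate support, as rescaling moves all genes nearly alike. With library totals 56.2% of all genes were DEGs, and 21 members rose and 7 fell. The share of rises among called members was 75% in place of 90.6% (37.6% in place of 49.7% for all genes). Of the 29 risen members 22 were DEGs in each fit with 1 library left out, and all 29 kept their sign. The exceptions were Mrpl4, Mrpl10, Mrpl13, Mrpl18, Mrpl21, Mrpl38 and Mrps28, whose log2 fold changes in these fits stayed between 0.37 (Mrpl4) and 0.89 (Mrpl21). Without N8, 64.0% of all genes were DEGs, 29 members rose and 9 fell. The count of fallen members was 1 without N7 and 0 without N1 or without N2, where edgeR's quasi-likelihood test had 5 at an unadjusted p below 0.05 in each case and DESeq2 alone called 3. Among the libraries of number 21, 37.7% of all genes were DEGs, 14 members rose and 5 fell; among those of number 22, 20.2% were DEGs, 10 members rose and 0 fell, with 0 falls at an unadjusted p below 0.05 in edgeR and 0 by DESeq2 alone. Both numbers alone called Mrpl15, Mrpl45, Mrpl47, Mrpl51, Mrps10, Mrps16, Mrps18b, Mrps31, Mrps34 and Mrps35.

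In NRK-49F, 11 of 74 members rose under acidosis (14.9%) and 5 fell (6.76%), between 1.07 for Mrpl38 and -0.79 for Mrpl48. Of 13339 genes tested 37.8% were DEGs, 18.4% risen and 19.4% fallen. The median was 0.05 (0.02 to 0.15 with 1 library left out) against 0.00 for all genes, and 42 members (56.8%) were fitted above 0, against 49.8%. All 5 fallen members were large subunit proteins. With library totals in both tools 37.5% of all genes were DEGs, 15 members rose and 3 fell, and the share of rises among called members was 83.3% in place of 68.8%. The count of risen members was 6 without N9 or without N10, 7 without N15 and 18 without N13 (36.8% of all genes DEGs), and that of fallen members 3 without N11, N12, N13 or N15. Among the libraries of number 20, 35% of all genes were DEGs, 18 members rose and 3 fell. Among those of number 21, 14.3% were DEGs, Mrpl51 was the 1 member that rose, and 0 fell, with 11 falls at an unadjusted p below 0.05 in edgeR and 2 by DESeq2 alone.

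Both lines shared a few of these changes. Mrpl21, Mrpl38, Mrpl45, Mrpl47, Mrpl51, Mrpl55, Mrps10 and Mrps34 rose in each line, 8 members or 27.6% of the rises in NRK-52E and 72.7% of those in NRK-49F. For all genes these shares were 32.4% and 50.7%. Mrpl20 fell in both lines, Mrpl10 rose in NRK-52E and fell in NRK-49F, and 36 members were DEGs in neither. A difference of these counts from those of all genes was not tested. Whether the pH effects differed was tested as an interaction over all 16 libraries, where 36.9% of 14679 genes passed, 19.3% with the more positive effect in NRK-52E and 17.5% with the more negative. For 12 members (16.2%) the effect was more positive in NRK-52E and for Mrps2 (1.35%) more negative, and the median difference was 0.33 (0.13 to 0.39 with 1 library left out) against -0.01 for all genes. The 12 were, in order of size, Mrps16, Mrps35, Mrpl14, Mrpl15, Mrps31, Mrps23, Mrps18b, Mrpl10, Mrpl13, Mrpl17, Mrps30 and Mrpl45, with differences between 0.60 and 1.37.

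With library totals in both tools the interaction median of all genes shifted to -0.25 and that of the members to 0.09 (36.9% of all genes called). The counts of members were then 8 and 3, and the positive share of called members was 72.7% in place of 92.3% (33.8% in place of 52.4% for all genes). Without N3 the counts were 7 and 2, without N8 12 and 5 (39.9% of all genes called), and without N13 10 and 1. Calls of Mrpl13, Mrpl17, Mrpl45, Mrps18b and Mrps30 were lost without N3, and some of them also without N2, N5, N6, N11, N13, N15 or N16, with differences between 0.45 (Mrpl45) and 0.92 (Mrps18b) over these fits. Within number 21 16.9% of all genes passed, and of the members Mrps16 had the more positive effect in NRK-52E; 0 had the more negative effect, with 7 at an unadjusted p below 0.05 in edgeR's quasi-likelihood test and 0 by DESeq2 alone.

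**Figure D2:**
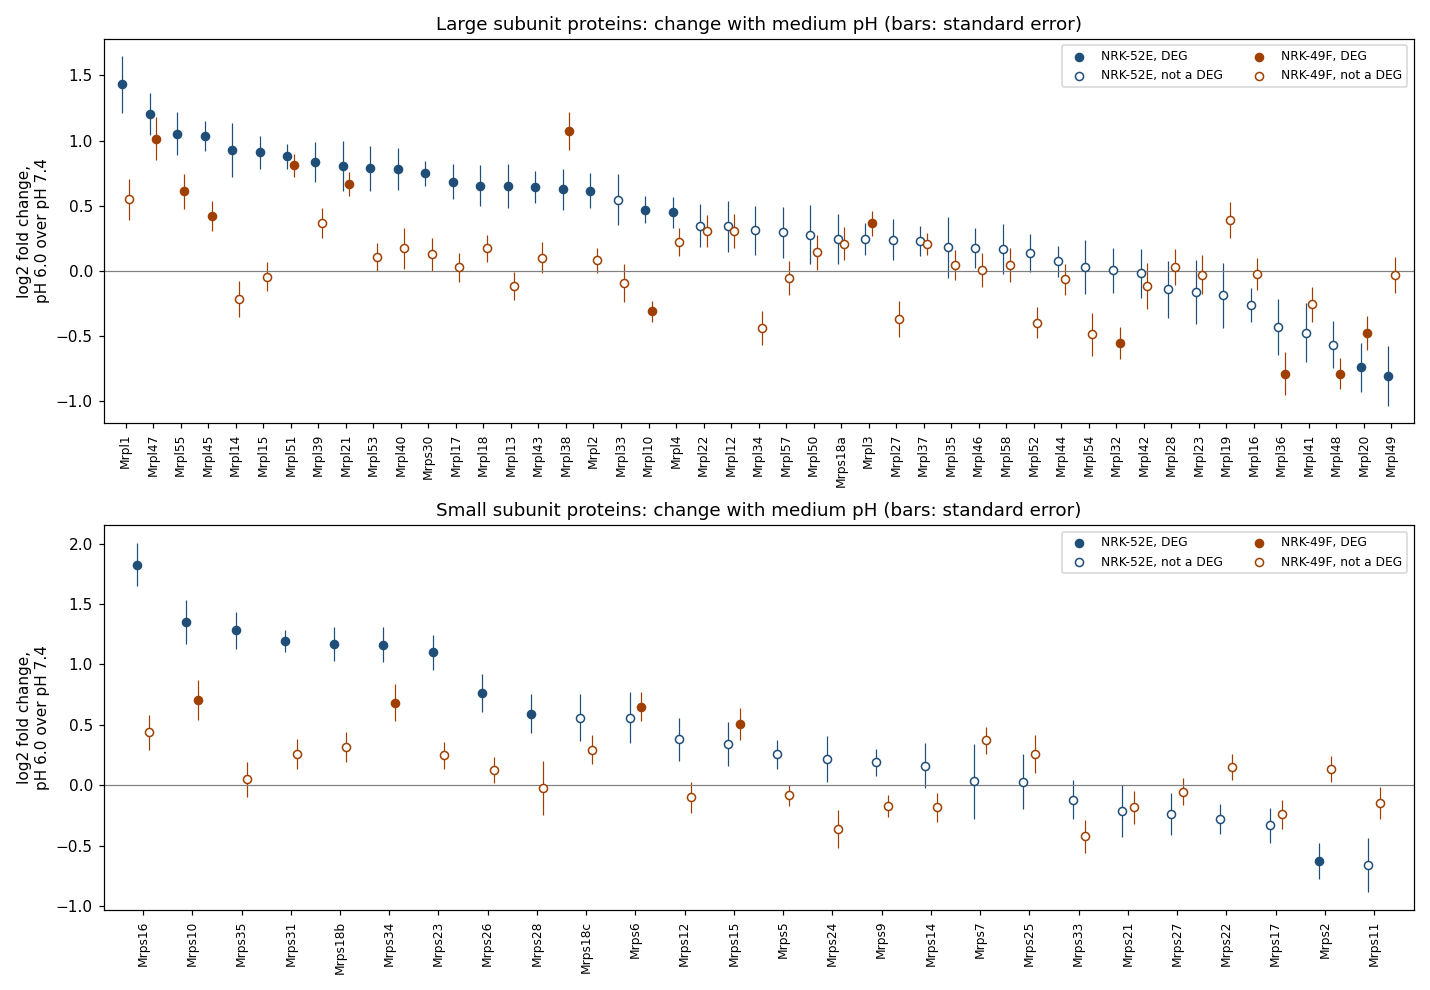
Log2 fold change (pH 6.0 minus pH 7.4) ± standard error of each large subunit member and each small subunit member in NRK-52E and NRK-49F, from 4 libraries per group; filled points are DEGs and open points are not. The NRK-52E values lie mostly above 0 and reach 1.83 for Mrps16, whereas most NRK-49F values lie near 0.

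Among the large subunit proteins, 20 of 47 rose and 2 fell in NRK-52E (median 0.31), and 7 rose and 5 fell in NRK-49F (median 0.05). The 25 that were not DEGs in NRK-52E had log2 fold changes from -0.57 (Mrpl48) to 0.55 (Mrpl33), and the 35 in NRK-49F from -0.49 (Mrpl54) to 0.55 (Mrpl1). Mrpl12 and Mrpl10 form the stalk that recruits translation factors, and Mrpl1 is the counterpart of the bacterial L1 protein, which guides the leaving tRNA. Mrpl1 (ENSRNOG00000002070, chromosome 14) was at 8.523, 9.09, 4.91 and 7.41 FPM in NRK-52E at pH 7.4 and at 24.2, 17.3, 16.01 and 22.5 FPM at pH 6.0, the largest rise of the large subunit. All acidotic libraries lay above all controls, and the log2 fold change was 1.43 ± 0.22 (edgeR FDR 1.58e-04). In NRK-49F the means were 9.86 ± 1.85 and 14.4 ± 0.762 FPM, without overlap of the pH groups, but the FDR was above the DEG threshold (edgeR FDR 0.0103).

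Mrpl10 (ENSRNOG00000009567, chromosome 10) was the member with opposite calls. Its FPM were 53.4, 45.7, 43.0 and 40.6 in NRK-52E at pH 7.4 and 59.0, 61.4, 62.5 and 67.5 at pH 6.0. In NRK-49F they were 91.3, 87.7, 97.4 and 100.1 at pH 7.4 and 74.8, 76.7, 75.4 and 76.7 at pH 6.0. The pH groups did not overlap in either line and the lines drew closer under acidosis. The log2 fold changes were 0.47 ± 0.10 (edgeR FDR 0.00198) and -0.31 ± 0.08 (edgeR FDR 0.00673), with a difference of 0.77 ± 0.13 (edgeR FDR 8.03e-05). The rise lost its call without N5 or N6 (0.39 to 0.54 over all fits) and the fall lost it whichever of the 8 NRK-49F libraries was left out (-0.34 to -0.29), while the difference was called in each of its 16 fits. Neither the rise nor the fall was called with library totals in both tools. Mrpl12 was at 38.9 ± 6.91 and 48.7 ± 13.3 FPM in NRK-52E and 93.1 ± 12.6 and 115 ± 17.0 FPM in NRK-49F, and its pH groups overlapped in both lines.

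Mrpl2 and Mrpl3 reach towards the peptidyl transferase centre. Mrpl2 rose in NRK-52E from 22.2 ± 2.96 to 33.7 ± 4.03 FPM (log2 fold change 0.61 ± 0.13), a call lost with library totals. Mrpl3 was a DEG in NRK-49F, from 59.5 ± 5.21 to 76.7 ± 3.60 FPM (edgeR FDR 0.00634), but not without N9, N10, N12, N14, N15 or N16 (0.32 to 0.43). Mrpl14, the counterpart of a bacterial protein at the subunit interface, was at 31.3, 27.96, 19.7 and 31.1 FPM in NRK-52E at pH 7.4 and 57.2, 37.0, 44.6 and 68.1 FPM at pH 6.0. N8 was the highest and N4 the lowest acidotic library, but both lay above all controls (log2 fold change 0.93 ± 0.21, edgeR FDR 0.00222). In NRK-49F, at 24.4, 23.8, 32.2 and 22.5 and 19.6, 23.7, 24.4 and 20.9 FPM, the pH groups overlapped, and the difference between the lines was 1.12 ± 0.26 (edgeR FDR 0.00139). Mrpl15 behaved alike, with 34.6 ± 3.59 and 64.3 ± 8.69 FPM in NRK-52E, 63.4 ± 7.84 and 61.6 ± 5.33 FPM in NRK-49F and a difference of 0.94 ± 0.17.

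Proteins around the exit of the polypeptide tunnel include Mrpl47, the counterpart of bacterial L29, and Mrpl45, which tethers the mitoribosome to the inner membrane. Mrpl47 was at 7.25, 5.41, 5.20 and 5.69 FPM in NRK-52E at pH 7.4 and at 12.6, 13.3, 12.7 and 15.2 FPM at pH 6.0. In NRK-49F it was at 6.29, 6.13, 6.75 and 4.50 FPM at pH 7.4 and at 11.4, 12.52, 12.8 and 10.98 FPM at pH 6.0. It thus rose alike in both lines and from similar levels, by 1.20 ± 0.16 and 1.01 ± 0.17 (edgeR FDR 5.67e-05 and 2.9e-04), and the difference between the lines was 0.17 ± 0.22 (edgeR FDR 0.54). Mrpl45 rose by 1.04 ± 0.11 in NRK-52E, from 26.7 ± 1.26 to 54.3 ± 6.75 FPM, and by 0.42 ± 0.12 in NRK-49F, from 76.8 ± 11.6 to 103 ± 6.58 FPM. The smaller rise was a DEG with all libraries but not without N9, N10, N11, N12, N14 or N15 (0.35 to 0.54), and the difference of 0.60 ± 0.16 not without N3 or N5 (0.45 to 0.67).

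Mrpl51, a mitochondria-specific protein, also rose in both lines. Its FPM in NRK-52E were 41.4, 40.1, 40.9 and 39.4 at pH 7.4 and 65.5, 70.5, 79.5 and 79.4 at pH 6.0. In NRK-49F they were 61.2, 51.8, 54.5 and 54.0 and 92.1, 89.1, 101 and 106. Each acidotic library lay above each control of its line, the log2 fold changes were 0.88 ± 0.09 and 0.81 ± 0.09 (edgeR FDR 1.24e-05 and 1.66e-05), and the difference between the lines was 0.06 ± 0.13 (edgeR FDR 0.745). Mrpl38, a protein of the central protuberance, had the largest rise in NRK-49F, at 26.6, 27.5, 30.3 and 27.9 FPM at pH 7.4 and 64.2, 70.6, 59.4 and 42.3 FPM at pH 6.0. N16 was the lowest acidotic library but still lay above all controls, and the log2 fold change was 1.07 ± 0.15 (edgeR FDR 7.91e-05). In NRK-52E Mrpl38 rose from 13.8 ± 1.21 to 21.1 ± 4.03 FPM, a call that was lost without N1, N2, N5 or N7 (0.49 to 0.71). The other large subunit members that rose in both lines were Mrpl21 (0.81 ± 0.19 and 0.67 ± 0.09) and Mrpl55 (1.05 ± 0.17 and 0.61 ± 0.13), of which Mrpl21 lost its call in NRK-52E without N2, N5 or N6 (0.57 to 0.89). Neither Mrpl21 nor Mrpl38 was called in NRK-52E with library totals in both tools, so that 6 of the 8 members rose in both lines under that scaling.

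Falls were seen for Mrpl20, a counterpart of the bacterial assembly protein L20, in both lines. It was at 84.3, 78.3, 58.0 and 80.8 FPM in NRK-52E at pH 7.4 and 43.5, 34.1, 39.2 and 61.5 FPM at pH 6.0. In NRK-49F it was at 66.5, 61.3, 79.1 and 73.3 and 38.4, 49.8, 56.1 and 56.9 FPM. The NRK-52E groups overlapped, since N8 lay above N5, and the NRK-49F groups did not. The log2 fold changes were -0.74 ± 0.19 (edgeR FDR 0.00447) and -0.48 ± 0.13 (edgeR FDR 0.00882). The first call was lost without N1, N2, N3 or N7 (-0.95 to -0.65) and the second without N9 or any of N11 to N15 (-0.54 to -0.36). The fall in NRK-52E was called with library totals in both tools, and that in NRK-49F was not. Mrpl49 fell in NRK-52E from 8.53 ± 0.984 to 4.81 ± 1.42 FPM (edgeR FDR 0.00883), but not without N1, N2, N5, N6 or N7 (-0.93 to -0.62).

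The largest fall in NRK-49F was that of Mrpl48, another protein of the central protuberance, which was at 43.1, 40.9, 52.1 and 41.8 FPM at pH 7.4 and 21.9, 26.7, 26.4 and 27.9 FPM at pH 6.0. The groups lay far apart, with a log2 fold change of -0.79 ± 0.12 (edgeR FDR 1.6e-04). In NRK-52E, at 33.1, 26.5, 22.7 and 23.6 and 17.5, 15.3, 14.6 and 23.4 FPM, N8 overlapped with the controls and the gene was not a DEG (edgeR FDR 0.0167), but it was called with library totals in both tools. Mrpl36 fell in NRK-49F from 18.0 ± 2.516 to 10.4 ± 2.09 FPM and Mrpl32, which the m-AAA protease cleaves on import, from 38.2 ± 4.75 to 26.02 ± 2.79 FPM. Their log2 fold changes were -0.79 ± 0.17 and -0.56 ± 0.12, and both calls, like that of Mrpl48, held in each fit with 1 library left out. Mrpl44, which has a ribonuclease III fold, Mrpl41 and Mrpl58, a peptidyl-tRNA hydrolase that rescues stalled ribosomes, were DEGs in neither line, with log2 fold changes of 0.07 ± 0.12, -0.48 ± 0.23 and 0.17 ± 0.19 in NRK-52E. Mrps30 rose in NRK-52E from 27.9 ± 1.98 to 46.5 ± 2.72 FPM, whereas Mrps18a was at 26.4 ± 4.85 and 30.9 ± 7.74 FPM and its groups overlapped.

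Among the small subunit proteins, 9 of 26 rose and 1 fell in NRK-52E (median 0.30), and 4 rose in NRK-49F (median 0.13), where the lowest value was -0.42 ± 0.14 for Mrps33. The 16 that were not DEGs in NRK-52E had log2 fold changes from -0.66 (Mrps11) to 0.56 (Mrps18c), and the 22 in NRK-49F from -0.42 (Mrps33) to 0.44 (Mrps16). Mrps16 (ENSRNOG00000006898, chromosome 15), whose bacterial counterpart helps to assemble the body of the small subunit, had the largest change of all members. It was at 20.2, 13.7, 13.7 and 15.3 FPM in NRK-52E at pH 7.4 and at 48.7, 47.9, 51.0 and 72.9 FPM at pH 6.0. The groups lay far apart, N8 was highest, and the rise was 3.55-fold (log2 fold change 1.83 ± 0.18, edgeR FDR 6.82e-06). In NRK-49F it was at 29.1, 27.8, 37.9 and 30 FPM at pH 7.4 and 44.5, 49.8, 42.0 and 33.1 FPM at pH 6.0. Here N13 overlapped with N16, the log2 fold change of 0.44 ± 0.15 did not reach the threshold (edgeR FDR 0.0235), and the difference between the lines was 1.37 ± 0.23 (edgeR FDR 1.05e-04).

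Mrps35, a mitochondria-specific protein, followed the same pattern. It was at 49.9, 41.8, 39.8 and 46.2 FPM in NRK-52E at pH 7.4 and at 123, 81.8, 95.1 and 128 FPM at pH 6.0, and every acidotic library lay above every control. In NRK-49F it was at 84.2, 83.0, 121 and 77.2 and 95.9, 100.1, 103 and 80.7 FPM, with N13 above all others and the groups interleaved. The rise in NRK-52E was 1.28 ± 0.15 (edgeR FDR 2.7e-05) and the difference between the lines 1.22 ± 0.22 (edgeR FDR 1.55e-04). Mrps23 and Mrps18b also rose in NRK-52E, by 1.102 ± 0.14 and 1.17 ± 0.14, with differences between the lines of 0.84 ± 0.18 and 0.84 ± 0.20, the second of which was not called without N3 (0.60 to 0.92). Mrps18b is 1 of 3 members named after bacterial S18, and the other 2 were not DEGs in either line: Mrps18c was at 15.3 ± 2.001 and 22.3 ± 6.25 FPM in NRK-52E, and Mrps18a is given above.

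Mrps10, a protein of the head of the small subunit, rose in both lines. Its FPM were 7.96, 8.63, 7.93 and 6.69 in NRK-52E at pH 7.4 and 15.48, 18.2, 19.0 and 26.1 at pH 6.0. In NRK-49F they were 9.01, 10.9, 14.03 and 13.4 and 19.7, 18.9, 22.6 and 16.2. No acidotic library overlapped with the controls of its line, N8 was the highest of all, and the log2 fold changes were 1.35 ± 0.18 and 0.70 ± 0.17 (edgeR FDR 6.92e-05 and 0.00345). The smaller rise was not called without N9, N10 or N15 (0.59 to 0.80). Mrps34, a mitochondria-specific protein, rose in NRK-52E, with 25.4 ± 4.72 FPM at pH 7.4 and 56.4 ± 7.17 FPM at pH 6.0, and in NRK-49F, with 29.3 ± 3.81 and 47.0 ± 8.95 FPM (log2 fold changes 1.16 ± 0.15 and 0.68 ± 0.15, the latter not called without N9 or N10, 0.60 to 0.81). Mrps6 and Mrps15 rose in NRK-49F alone by 0.65 ± 0.12 and 0.50 ± 0.13, Mrps15 with overlapping groups and not without N9, N10, N12, N14 or N15 (0.43 to 0.62). The interaction did not separate the lines for either of them (edgeR FDR 0.746 and 0.528).

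Mrps2 was the small subunit protein that fell. It was at 35.5, 33.0, 29.6 and 33.0 FPM in NRK-52E at pH 7.4 and at 14.9, 23.0, 22.7 and 23.4 FPM at pH 6.0, with N3 lowest, and in NRK-49F at 31.3, 29.0, 31.2 and 34.0 and 38.6, 35.98, 33.1 and 30.3 FPM. The NRK-52E groups did not overlap and the NRK-49F groups did. The fall was -0.63 ± 0.15 (edgeR FDR 0.0034), not called without N1 or N2 (-0.70 to -0.50), and the difference between the lines of -0.78 ± 0.18 (edgeR FDR 0.00199) was called in each of its 16 fits. Mrps12, whose bacterial counterpart sets the accuracy of decoding, Mrps5, Mrps7 and Mrps22 were DEGs in neither line. Mrps12 and Mrps5 were at 23.6 ± 3.33 and 32.7 ± 3.72 FPM in NRK-52E at pH 7.4 and 30.3 ± 7.53 and 38.7 ± 4.04 FPM at pH 6.0. Mrps7 rested on N8: at 29.3, 23.6, 19.9 and 25.1 FPM at pH 7.4 and 16.1, 16.53, 20.9 and 45.4 FPM at pH 6.0, that library was higher and N3 and N4 were lower than every control. The remaining risen small subunit members of NRK-52E were Mrps26 (0.76 ± 0.16), Mrps28 (0.59 ± 0.16, not called without N1, N2, N3, N5, N6 or N7, 0.46 to 0.66) and Mrps31. Mrps36, which belongs to no ribosomal subunit, was at 24.7 ± 3.27 and 36.7 ± 8.92 FPM in NRK-52E without overlap of the groups, but was not a DEG (edgeR FDR 0.0124).

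**Figure D3:**
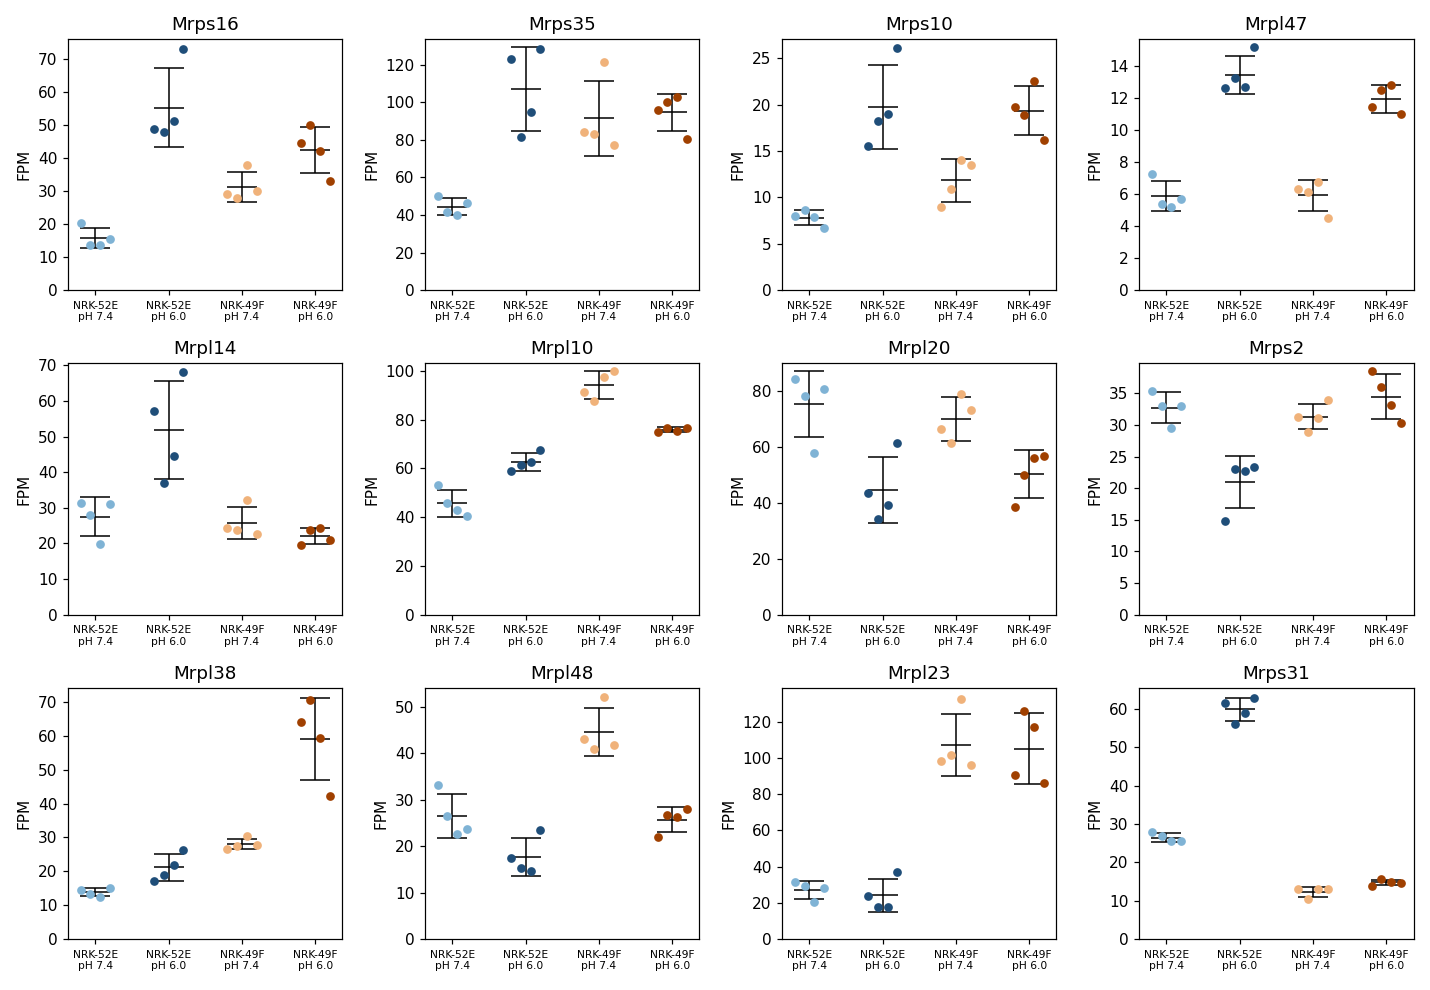
FPM in each library, with mean ± SD of each group of 4, for Mrps16, Mrps35, Mrps10, Mrpl47, Mrpl14, Mrpl10, Mrpl20, Mrps2, Mrpl38, Mrpl48, Mrpl23 and Mrps31. Mrps16 in NRK-52E goes from 15.7 ± 3.08 to 55.1 ± 11.9 FPM, Mrpl47 is higher at pH 6.0 in both lines, and Mrps31 is higher in NRK-52E than in NRK-49F at both pH values.

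The lines were also compared with each other at each pH. These comparisons use the same libraries as those of pH, so the counts are not independent of each other. At pH 7.4, 50 of 74 members were lower in NRK-52E than in NRK-49F (67.6%) and 3 were higher (4.05%). Of 14026 genes tested 66.6% were DEGs, 33.3% lower and 33.3% higher. The members' median was -0.67 (-0.76 to -0.57 with 1 library left out) against 0.03 for all genes, and it was -0.67 for the large subunit (33 of 47 lower, 1 higher) and -0.71 for the small subunit (17 of 26 lower, 2 higher). At pH 6.0, 31 members were lower (41.9%) and 3 higher (4.05%), with 59.8% of 13796 genes being DEGs, 31.3% lower and 28.6% higher, and a median of -0.38 (-0.52 to -0.31 with 1 library left out) against -0.03. The large subunit then had 18 lower and 1 higher (median -0.39) and the small subunit 13 lower and 2 higher (median -0.48). In all, 27 members were called lower in NRK-52E at both pH values, 23 at pH 7.4 alone, and Mrpl49, Mrps2, Mrps22 and Mrps27 at pH 6.0 alone. Whether these counts differ from those of all genes was not tested. Of the genes called at pH 6.0 alone, the interaction was called for Mrps2 and not for the others. At pH 6.0 Mrps2 and Mrps27 were not called with library totals in both tools. With 1 library left out, Mrps27 was called only without N8 (-0.76 to -0.45 over all fits).

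Scaling mattered here as well. With library totals in both tools the all-gene median was 0.34 at pH 7.4 and 0.12 at pH 6.0, and that of the members -0.36 and -0.23. The members lay 0.70 and 0.35 below all genes under either scaling, which is no separate support, as rescaling moves all genes nearly alike. With library totals 34 members were lower and 7 higher at pH 7.4 (69.1% of all genes DEGs). The share of higher members among those called was 17.1% in place of 5.66% (65.7% in place of 50% for all genes). At pH 6.0 the counts were 27 and 5 (60.1% of all genes). Without N8 41 members were lower and 3 higher at pH 6.0 (65.6% of all genes), and without N13 48 and 3 at pH 7.4. Within number 21, 32 members were lower and 1 higher at pH 7.4 (39.9% of all genes), and 32 were lower and 3 higher at pH 6.0 (51.4%).

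Mrpl23, a protein at the tunnel exit, had the largest difference between the lines at pH 7.4. It was at 31.3, 29.5, 20.2 and 27.9 FPM in NRK-52E and at 98.2, 102, 133 and 95.8 FPM in NRK-49F, so that the lowest NRK-49F library was above every NRK-52E library. The difference was -1.89 ± 0.15 at pH 7.4 (edgeR FDR 3.21e-07) and -2.12 ± 0.23 at pH 6.0, a 3.72-fold higher level in NRK-49F at pH 7.4. Mrpl21, Mrpl33 and Mrpl45 followed, with -1.62 ± 0.10, -1.61 ± 0.15 and -1.44 ± 0.11 at pH 7.4, and -1.58 ± 0.18, -1.07 ± 0.18 and -0.92 ± 0.12 at pH 6.0. Mrps31, a mitochondria-specific protein of the small subunit head, went the other way. Its FPM in NRK-52E were 27.8, 26.97, 25.5 and 25.5 at pH 7.4 and 61.6, 56.1, 59.1 and 62.9 at pH 6.0. In NRK-49F they were 12.9, 10.4, 12.97 and 13.01 and 13.8, 15.6, 14.9 and 14.7. Every NRK-52E library was above every NRK-49F library, by 1.18 ± 0.10 at pH 7.4 (edgeR FDR 9.54e-07) and 2.02 ± 0.11 at pH 6.0 (edgeR FDR 1.1e-08), and the gene rose with acidosis in NRK-52E by 1.19 ± 0.09 (edgeR FDR 1.12e-06), 0.92 ± 0.14 more than in NRK-49F (edgeR FDR 3.11e-05). Mrpl16 was also higher in NRK-52E at pH 7.4 (0.49 ± 0.10), Mrpl14 at pH 6.0 (1.23 ± 0.18), and Mrps24 at both (0.42 ± 0.12 and 0.90 ± 0.20), at pH 7.4 with overlapping groups and not without N1, N2, N6, N9, N10 or N14 (0.36 to 0.54). With the label number as a covariate, and within number 21, Mrps31 was the only one of these called higher in NRK-52E at pH 7.4, and Mrpl16 and Mrps24 were not. At pH 6.0 the covariate left Mrpl14 and Mrps31 called, and Mrps24 was not. Within number 21, Mrpl14, Mrps24 and Mrps31 were all called higher in NRK-52E at pH 6.0. Mrpl44, not a DEG between the lines, was at 31.6 ± 2.77 FPM in NRK-52E and 35.9 ± 5.53 FPM in NRK-49F at pH 7.4, with overlapping groups.

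The members are spread over the genome, with 12 each on chromosomes 1 and 10 (15.8% of members against 13.6% and 7.91% of protein-coding genes) and 7 on chromosome 4 (9.21% against 6.4%). RefSeq names 31 pseudogenes for 22 of them, Mrps16, Mrpl1, Mrpl47 and Mrps10 included. As fragments mapping to several places had been counted at each, levels of these members are uncertain. In NRK-52E 10 of these 22 rose, and 19 rose and 3 fell of the 52 other tested members. In NRK-49F 3 of the 22 rose and 1 fell, against 8 and 4 of the others.

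Promoter sequences were available from RefSeq (build GRCr8, 250 bases before to 50 after the start) for 59 members with 61 promoters, and exact matches on both strands were counted against the 33469 promoters of the same length in the table. AAGATGGC or its reverse complement GCCATCTT, the core bound by YY1, was found in 15 member promoters (24.6%) and in 3.17% of all promoters. In 11 of the 15 it stood on the strand of the gene and wholly after the start. CCGGAAGT or ACTTCCGG, bound by ETS factors such as GABP, was found in 13.1% of member promoters and 3.81% of all, and GCGCATGC or GCATGCGC, the core for NRF1, in 8.2% and 2.47%. The E-box CACGTG was found in 8.2% and 6.42%, TGATGNAA or TTNCATCA in 3.28% and 3.98%, and TGACNNNGC or GCNNNGTCA, the core of the antioxidant response element, in 13.1% and 12.1%. Of 21 members with a promoter that rose in NRK-52E 3 held AAGATGGC, and of the 38 others 12. The windows of 30 bases below show this motif, in capitals, in 3 members that rose in NRK-52E (Mrps10, which rose in NRK-49F too, chr9:21122405-21122434, minus strand; Mrps18b, chr20:2843023-2843052, plus; Mrps30, chr2:52195868-52195897, minus), in Mrps6, which rose in NRK-49F (chr11:44778653-44778682, plus), in Mrpl49, which fell in NRK-52E (chr1:212779293-212779322, minus), and in 3 of the 5 members that fell in NRK-49F (Mrpl36, chr1:31795119-31795148, minus; Mrpl48, chr1:164351535-164351564, minus; Mrpl32, chr17:55260420-55260449, plus), of which Mrpl36 and Mrpl32 hold the reverse complement. The motif starts at base 31, 29 and 19 in the first 3, at -3 in Mrps6, at 17 in Mrpl49, and at -16, -177 and -220 in Mrpl36, Mrpl48 and Mrpl32. A match describes the letters and not the binding of a factor.
Mrps10: gtcagggcaccAAGATGGCggcgcgcgcag
Mrps18b: ggatgtgcgacAAGATGGCtgcctccttgc
Mrps30: cgcggaggacaAAGATGGCggctgccaggt
Mrps6: aagattccatcAAGATGGCagccaagaccc
Mrpl49: ttggaggagcaAAGATGGCagcaaatgtat
Mrpl36: cgtgaccctacGCCATCTTtctttctggcg
Mrpl48: actcggtaacaAAGATGGCaactaatactg
Mrpl32: aaccgcgttctGCCATCTTtacccggaaag

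Other genes of the mitoribosome and its surroundings were taken from lists by role. Of all genes, 28.2% rose and 28.5% fell in NRK-52E, and 18.4% rose and 19.4% fell in NRK-49F. Of the 5 mitoribosome subunits with other names that were tested, Chchd1 rose in both lines (1.39 ± 0.20 and 0.58 ± 0.15, the latter not without N9, N10, N12, N14 or N15), and Aurkaip1 in NRK-49F (0.45 ± 0.09). Of 25 assembly factors 6 rose and 6 fell in NRK-52E (24% each) and 4 rose and 2 fell in NRK-49F (16% and 8%), with medians of 0.23 and 0.18; the falls were 3 in NRK-52E without any one of N1 to N6, and 1 in each NRK-49F fit with a library left out. Mterf3, which takes part in ribosome assembly, had the largest rise in NRK-52E, from 38.1 ± 3.91 to 118 ± 14.9 FPM (1.64 ± 0.11), followed by Mpv17l2 (1.26 ± 0.14). The GTPase Mtg1 fell in NRK-52E and rose in NRK-49F (-1.11 ± 0.20 and 0.53 ± 0.09), as did Noa1 (-0.69 ± 0.15 and 0.98 ± 0.13). The rRNA methyltransferase Nsun4 fell in both lines (-0.99 ± 0.16 and -0.70 ± 0.13), and Mettl17 rose in both (0.61 ± 0.13, not without N5, and 0.95 ± 0.12). Of 17 translation factors 5 rose and 6 fell in NRK-52E (29.4% and 35.3%), and 6 rose and 2 fell in NRK-49F (35.3% and 11.8%). In NRK-52E the rises were 3 without N2, N5 or N6 and the falls 3 without N1, N3, N4, N5 or N7. Called in the same direction in both lines, with NRK-52E first, were the initiator methionyl-tRNA formyltransferase Mtfmt (1.09 ± 0.13 and 0.64 ± 0.10), the ribosome recycling factor Mrrf (-1.09 ± 0.12 and -1.23 ± 0.12) and the initiation factor Mtif3 (-1.104 ± 0.19 and -0.68 ± 0.12). Taco1 rose in NRK-49F (0.79 ± 0.17) and fell in NRK-52E. The fall was not called without N1, N3, N4, N5, N6 or N7 (-1.13 to -0.80 with 1 library left out). The peptide deformylase Pdf was called in NRK-52E (-1.28 ± 0.17) and the mRNA-binding Lrpprc in NRK-49F (0.76 ± 0.09).

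Of 9 genes for transcription and replication of mitochondrial DNA 2 rose and 3 fell in NRK-52E (22.2% and 33.3%), and 2 rose in NRK-49F (22.2%); the falls were 1 without N1, N2, N3, N5 or N7, and at most 1 rose in NRK-49F without N9, N10, N11, N12 or N15. Among them were Tfb2m (0.83 ± 0.12) and Tefm (-1.04 ± 0.19) in NRK-52E. The 13 mitochondrially encoded genes were listed at 0 in every library. Of 8 nuclear regulators tested in NRK-52E 4 rose and 2 fell, Esrra (log2 fold change 1.59 ± 0.16) and Pprc1 (0.78 ± 0.11) among the rises and Myc among the falls (-0.60 ± 0.15, not without N1, N2, N4 or N7). Of 9 in NRK-49F 2 rose, Myc (1.93 ± 0.17) and Pprc1 (0.77 ± 0.17), and 2 fell. The 2 falls stood in NRK-49F only with all libraries, at most 1 being called in each fit with a library left out, and in NRK-52E fewer than 2 were called without N1, N2, N4, N5, N6 or N7. The import machinery had 4 of 21 genes risen and 1 fallen in NRK-52E (3 fallen without N8) and 6 risen and 1 fallen in NRK-49F, with Tomm6 (1.89 ± 0.13) and Timm13 (1.73 ± 0.14) leading in NRK-52E.

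Of the cytosolic ribosomal proteins, 56 of 88 rose in NRK-52E (median 0.75) and 7 fell in NRK-49F (median -0.21), with a more positive effect in NRK-52E for 67 of 89 (43 with library totals). Of all genes, 19.3% had the more positive effect in NRK-52E, and 12.4% with library totals in both tools. With 1 library left out the counts of rises, falls and more positive effects in this list were 37 to 73, 3 to 10 and 33 to 76. The rises and the interaction were lowest without N3 and the falls without N11 or N16. Of the nuclear-encoded respiratory chain subunits, 42 of 80 rose and 1 fell in NRK-52E (median 0.53) and 7 rose and 5 fell in NRK-49F (median -0.08). The rises in NRK-52E were 26 without N5, and the fall was not called without N1, N2, N3, N4, N6 or N7. In NRK-49F 11 rose without N13, and the falls were 2 to 4 in each fit with a library left out, never the 5 of all libraries. At pH 7.4, 84 of 88 cytosolic ribosomal proteins and 53 of 79 respiratory chain subunits were lower in NRK-52E than in NRK-49F. Of these lists 2 and 3 genes were higher, and of all genes 33.3% were lower and 33.3% higher. At pH 6.0, 7 of 89 and 15 of 80 were lower and 3 and 6 higher, with 31.3% of all genes lower and 28.6% higher. With 1 library left out the lower counts at pH 6.0 were 3 to 15 and 10 to 30, and the higher counts 3 and 3 to 11. Library totals left 40 and 28 rises for these lists in NRK-52E.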

How the data were processed

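Poly(A) RNA of the 16 libraries had been sequenced as 2 × 150 bp pairs. The deposited values are raw fragment counts per Ensembl gene, made by the authors with featureCounts on rat genome build rn6; the paper names tophat2 for mapping and the processing notes HISAT2 2.1.0. Fragments mapping to several places were counted at each and no strand setting is stated, so near-identical copies and overlapping antisense genes cannot be separated. Total counts of 16201084 to 34784862 per library limit what is seen of genes with few counts.

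From these counts, FPM were computed with edgeR 4.0.16 (TMM factors over all libraries) in R 4.3.3. The 5 comparisons (pH in each line, lines at each pH, and their interaction) were fitted over the whole table, with the 8 libraries of each pair of groups or all 16 for the interaction. Tools were edgeR's quasi-likelihood test (filterByExpr) and DESeq2 1.42.0 (Wald test, independent filtering), with Benjamini-Hochberg adjustment. DEGs have an FDR below 0.01 in both, with the same sign. Both were also run on simulated data with known changes. Those data had the same spread for every gene and few changed genes, so they do not give the error rate here. Named genes are landmarks by role; the 5 largest rises and falls per line among DEGs with at least 5 FPM; the 4 largest interactions and cell line differences at pH 7.4 in each direction; members with opposite calls; and from other lists the 2 largest called changes per direction, of which some are printed. The members and lists were chosen with earlier results of these data known. Alternatives were other scaling, no filter on low counts, each tool alone, an FDR below 0.05, all 16 libraries in one fit, the label number as covariate or alone, and each library left out. A genome and protein measurements were not used here.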

Additional observations from a re-analysis of the deposited data

Results flagged for a closer look

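In each group of 4 libraries, the highest or lowest value was set against Dixon's criterion for a value far from the others. Of 160 groups of values looked at 13 met it, where chance alone gives about 1 in 20, or 8. N13 was far above the other NRK-49F libraries at pH 7.4 for the summed FPM of all members (4269) and for Mrpl23 (133), Mrpl41 (58.0), Mrpl58 (49.9), Mrps18c (35.7) and Mrps35 (121). N8 was far above the other NRK-52E libraries at pH 6.0 for Mrpl21 (50.4), Mrps16 (72.9) and Mrps7 (45.4). The others were a low Mrpl15 in N16 (53.6), a low Mrps2 in N3 (14.9), a low Mrps31 in N10 (10.4) and a high Mrps5 in N15 (46.4). The cause was not tested.

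The effect of pH differed between the lines by the interaction test for 13 members. It was more positive in NRK-52E for 16.2% of members and more negative for 1.35%, against 19.3% and 17.5% of all genes. The calls of Mrpl13, Mrpl17, Mrpl45, Mrps18b and Mrps30 were not kept in every fit with 1 library left out. The effect in NRK-52E minus that in NRK-49F, on the log2 scale, was 1.37 for Mrps16, 1.22 for Mrps35, 1.12 for Mrpl14, 0.94 for Mrpl15, 0.92 for Mrps31, 0.84 for Mrps18b and 0.84 for Mrps23. It was 0.77 for Mrpl10, 0.75 for Mrpl13, 0.64 for Mrpl17, 0.61 for Mrps30, 0.60 for Mrpl45 and -0.78 for Mrps2.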

How the results depend on the processing

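No called result changed sign, but members that were not DEGs could, such as Mrps7 in NRK-52E (-0.45 to 0.19 with 1 library left out). Shares of all genes called in the same direction follow in brackets. With an FDR below 0.05 in both tools, 5 members fell in NRK-52E (34.6%), 17 rose and 10 fell in NRK-49F (25.7% and 26.4%), and the interaction had 27 positive and 3 negative members (25.5% and 24.7%). With library totals in edgeR alone, 5 members fell in NRK-52E (30.8%) and 3 fell in NRK-49F (17.6%), with 3 negative interactions (20.5%). With library totals in both tools, these were 7, 3 and 3 (35.1%, 17.6% and 24.4%), and 7 members at pH 7.4 and 5 at pH 6.0 were higher in NRK-52E than in NRK-49F (45.5% and 33.0%). With all 16 libraries in one fit 5 members fell in NRK-52E (29.3%), and with DESeq2 alone 5 fell there (30.8%) and 3 interactions were negative (20.9%).

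Within label number 21, 14 members rose and 5 fell in NRK-52E, 1 rose and 0 fell in NRK-49F, 1 was higher and 32 were lower in NRK-52E at pH 7.4, and 1 interaction was positive and 0 negative (edgeR's quasi-likelihood test had 11 falls in NRK-49F and 7 negative interactions at an unadjusted p below 0.05, DESeq2 alone 2 and 0). Within number 22, 10 rose and 0 fell in NRK-52E (0 at an unadjusted p below 0.05 in edgeR, 0 by DESeq2 alone), and within number 20, 18 rose and 3 fell in NRK-49F. Fewer libraries enter these fits; apart from that the cause was not tested. These settings and library totals in both tools were chosen after seeing the data.

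Over the fits that each lack 1 library, the risen and fallen members were 22 to 30 and 0 to 9 in NRK-52E, and 6 to 18 and 3 to 4 in NRK-49F. Higher and lower members in NRK-52E were 2 to 3 and 46 to 50 at pH 7.4, and 3 to 3 and 25 to 41 at pH 6.0. Positive and negative interactions were 7 to 17 and 1 to 5. Of 3774 single results of members under other settings 3474 kept their side of the threshold, 187 lost a call and 113 gained one, and of 3552 with a library left out these were 3355, 144 and 53. Of 918 counts of other lists 737 stayed within 1.5 times the count given. They include the counts of the mitochondrially encoded genes, which were never tested and so could not move. Of 671 results of named genes in those lists 597 stayed the same, and of 488 with a library left out 413.

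The label number, shared by libraries of both pH values in a line, was fitted as a covariate, without evidence in the labels that it marks a pair or batch. Then 28 members rose and 2 fell in NRK-52E (27.2% and 27.8% of all genes), 10 rose and 5 fell in NRK-49F (19.1% and 20%), 12 interactions were positive and 1 negative (18.7% and 17.2%), 2 members were higher and 27 lower in NRK-52E at pH 6.0 (22.5% and 25.7%), and 42 were lower and 1 was higher at pH 7.4 (26.5% and 26.4%). The numbers N1 to N16 are single and pair no libraries. Cell line and growth surface, cell number and RNA per cell, and separate cultures and repeats of a culture cannot be told apart in these data. Fragments counted at several places leave the level of members with pseudogenes uncertain, and transcript levels do not give the amount of protein or of assembled mitoribosomes.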
